A study of Mus musculus with 2 samples.

Results

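Rab GTPases were taken as all probe sets of the array that the platform annotation gives to exactly 1 gene whose symbol is Rab, a number and at most 2 further characters. This rule took in 139 of 45101 probe sets and 63 of 18193 named genes. Of these genes, 59 encode Rab GTPases, with 132 probe sets. The other 4 carry a fitting symbol only: Rab3ip encodes an exchange factor, Rab5if a factor named for its interaction with Rab5, and Rab10os and Rab26os are opposite-strand transcripts that RefSeq lists as lncRNA. They are described apart. Livers came from female wild-type C57BL/6 animals aged 8 weeks. The AKI group had 30 min of warm ischemia of both kidneys with reperfusion, which causes acute kidney injury (AKI), the sham group had a sham operation, and livers of both were taken 24 h later. Each group was 1 pool, made of 100 mg of frozen liver from 3 animals, and was measured on 1 Affymetrix array. With 2 arrays in all there was no replicate, so no p-value could be given, and every difference below describes these 2 pools. As whole liver was used, fewer cells of a type and less RNA per cell cannot be told apart.

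Rab proteins are small GTPases that mark the membranes of the cell. In the GTP form each sits on its own compartment, held by a prenyl tail, and recruits effector proteins that bud, move, tether or fuse vesicles. Exchange factors (GEFs) load GTP, GTPase-activating proteins (GAPs) end the signal, and GDI proteins carry the GDP form back through the cytosol. Hepatocytes depend on this traffic to secrete plasma proteins and lipoproteins, to take up ligands from blood, and to deliver transporters to the bile canaliculus.

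The values are signals on a linear scale, and each difference is the log2(signal + 71.8) of the AKI pool less that of the sham pool. The added constant shrinks the differences of weak genes. A gene is represented by its main probe set, the one with the highest mean signal of the 2 arrays, and a difference of 1 on this scale is called 2-fold. Of the 59 Rab GTPase genes, 11 were at least 2-fold higher in the AKI pool, against a background of 9.49% of all named genes, and 4 were at least 2-fold lower, against a background of 10.6%. The shares among Rab GTPases were 18.6% higher and 6.78% lower. Over all 132 Rab GTPase probe sets these shares were nearer to each other, at 13.6% and 11.4%, against 9.56% and 9.96% of all named probe sets. Of the Rab GTPase probe sets, 39.4% were above 0, against 50.9% of all, and their median was -0.10. The 11 higher genes include Rab2b and Rab3a, whose probe sets disagreed in direction. At 4-fold there were 2 higher genes, Rab30 and Rab20, against a background of 1.61%, and 2 lower genes, Rab23 and Rab1b, against 1.86%. The median difference of the 59 genes was -0.02, close to the median of all genes, 0.00, and 28 of them were above 0. With the arrays centred on 10 reference genes, 8 Rab GTPases (13.6%) were at least 2-fold higher, against a background of 5.77% of all genes, and 9 (15.3%) were lower, against 17.0%. The higher genes then made up 47.1% of the Rab GTPases past 2-fold, against 25.3% among all genes past 2-fold. With the authors' scaling these shares were 73.3% and 47.2%. With centring on 18 hybridization control probe sets they were 77.8% and 70.5%, so the gap depended on the centring. Then 14 Rab GTPases (23.7%) were at least 2-fold higher, against 15.8% of all genes, and 4 (6.78%) lower, against 6.6%. The 10 reference genes had a median of 0.29 themselves, with Ywhaz (1.20) past 2-fold. Centring on them moved the median of all genes to -0.29, and centring on 18 hybridization control probe sets moved it to 0.30, so differences smaller than this can change sign. The genes nearest to the 2-fold limit were Rab1a (1.04) just past it, and Rab9 (-0.94), Rab21 (-0.90) and Rab18 (0.90) just short of it.

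Repeat measurements came only from genes with more than 1 probe set. Over 26 Rab GTPase genes with at least 2 probe sets that reached the array median on either array (231.8 on the AKI array, 225.7 on the sham array), the pooled SD between probe sets of a gene was 0.77 for the log2 difference, against 0.70 over all 5149 such genes. A 2-fold difference, 1 on this scale, was only somewhat larger than this SD. Of the 38 Rab GTPase genes with several probe sets, 18 (47.4%) had all of them on the same side of 0, against 45.7% of 9010 genes on the whole array. Among the 15 genes past 2-fold, 9 had several probe sets, and in 7 of these all went the same way. This count was not taken over all genes past 2-fold, so it has no background. It cannot be set against the 45.7%, which takes in genes of any difference. The main probe set reached the array median for 47 of the 59 genes.

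**Figure D1:**
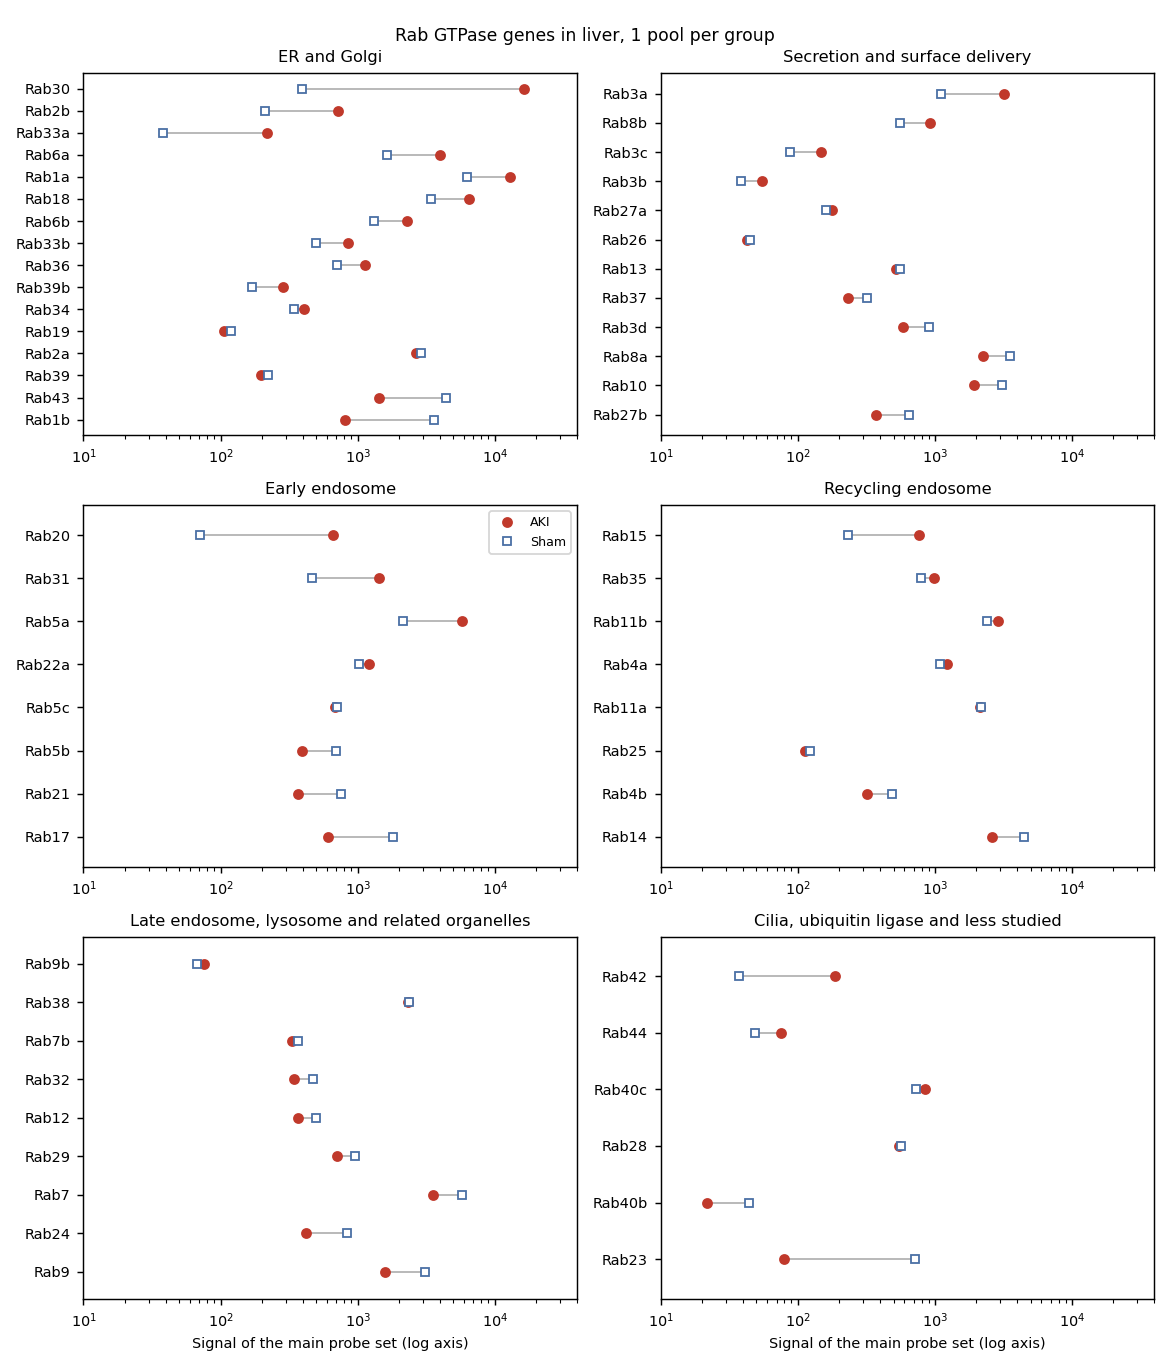
Signal of the main probe set of each of the 59 Rab GTPase genes, on a log axis, in the AKI pool (filled circles) and the sham pool (open squares), grouped by the membrane each protein works on. Rab30 shows the widest gap, with 16335.8 in the AKI pool and 389.6 in the sham pool; levels of different genes are not comparable, since each probe set has its own response.

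The promoters of 4 members that the results below turn on are shown, as the paralogs Rab1a and Rab1b went opposite ways, Rab6a was higher on all its probe sets and Rab20 had the second largest positive difference. Each is the stretch of 250 bases just before the RefSeq gene start, 5′ to 3′ on the gene's strand (build GRCm38.p6). Capitals mark matches on either strand to the E-box (CACGTG), the CCAAT box or the GC box (GGGCGG). They lie at chr8:11478641-11478890 (minus strand) for Rab20, chr7:100607336-100607585 (plus strand) for Rab6a, chr11:20201162-20201411 (plus strand) for Rab1a and chr19:5106997-5107246 (minus strand) for Rab1b.
Rab20: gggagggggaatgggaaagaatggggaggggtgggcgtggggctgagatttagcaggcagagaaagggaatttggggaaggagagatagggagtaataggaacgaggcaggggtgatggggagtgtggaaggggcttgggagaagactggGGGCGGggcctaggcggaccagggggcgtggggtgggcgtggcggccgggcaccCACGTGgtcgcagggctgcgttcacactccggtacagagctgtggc
Rab6a: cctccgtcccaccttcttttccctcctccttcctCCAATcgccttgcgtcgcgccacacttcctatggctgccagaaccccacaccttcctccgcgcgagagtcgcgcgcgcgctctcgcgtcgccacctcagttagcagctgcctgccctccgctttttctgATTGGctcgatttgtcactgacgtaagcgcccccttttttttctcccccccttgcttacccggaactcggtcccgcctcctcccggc
Rab1a: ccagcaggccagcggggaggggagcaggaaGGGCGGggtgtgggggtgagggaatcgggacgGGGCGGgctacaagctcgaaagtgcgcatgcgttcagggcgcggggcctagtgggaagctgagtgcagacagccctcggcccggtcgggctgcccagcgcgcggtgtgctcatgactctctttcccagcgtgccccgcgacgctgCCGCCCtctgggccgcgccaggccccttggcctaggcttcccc
Rab1b: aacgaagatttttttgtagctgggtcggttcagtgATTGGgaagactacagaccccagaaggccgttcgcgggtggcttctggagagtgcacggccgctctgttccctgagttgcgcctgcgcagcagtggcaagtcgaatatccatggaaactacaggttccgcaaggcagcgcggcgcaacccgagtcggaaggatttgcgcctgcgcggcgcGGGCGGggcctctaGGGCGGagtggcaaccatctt

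RefSeq gave promoters for 48 of the 59 Rab GTPase genes, 60 sequences in all, and Rab30 was not among them. A GC box was in 66.7% of the Rab promoters, against 32.7% of all 32851 promoters. A CCAAT box was in 40.0% of the Rab promoters, against 33.9% of all. The E-box was in the promoters of Rab5a, Rab20, Rab21, Rab23 and Rab27a (8.33%, against 6.02% of all). That of Rab20 begins 46 bases before the gene start. These 5 genes include some that were higher and some that were lower in the AKI pool. The AP-1 motif TGACTCA was in the promoters of Rab15 and Rab34, and the cyclic AMP response element TGACGTCA in those of Rab5a and Rab25. The AP-1 motif and the cyclic AMP response element were in 4.46% and 1.55% of all promoters. The XBP1 element TGACGTGG, which shares its first 6 letters with the cyclic AMP response element, was in 0 of the 60 Rab promoters, against 0.56% of all. All motifs were searched on both strands. A match is a description of these letters only.

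Of 16 Rabs of the endoplasmic reticulum (ER) and the Golgi, the largest of the role groups, 5 (31.2%) were at least 2-fold higher in the AKI pool, against a background of 9.49%: Rab30, Rab2b, Rab33a, Rab6a and Rab1a. Another 2 (12.5%) were lower, against 10.6%: Rab43 and Rab1b. The median difference was 0.67, and 11 of the 16 were above 0, against 50.2% of all genes. The median was 0.26 when all probe sets of a gene were averaged. Centring the arrays on hybridization controls made it 0.97, and centring them on reference genes 0.38. All role groups were chosen with earlier results of these data known, so their shares are a description only.

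Rab30, a Golgi Rab, had a signal of 16335.8 in the AKI pool and 389.6 in the sham pool, a ratio of 41.9 and a difference of 5.15. Only 10 of the 18193 genes had a larger difference. Its other probe set had 255.8 in the AKI pool and 115.7 in the sham pool, a difference of 0.81. Both were higher in the AKI pool, but by very different amounts. The suffix of the main probe set (_a_at) marks probes that may match several transcripts of a gene, and without such probe sets Rab30 was below 2-fold.

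Rab1a and Rab1b both control the step from the ER to the Golgi, and they went opposite ways. Rab1a had signals of 12978.5 in the AKI pool and 6287.1 in the sham pool, a difference of 1.04. Its other probe sets were at 0.71 and 0.45, so all 3 were higher in the AKI pool. Rab1b had 814.6 in the AKI pool and 3627.1 in the sham pool, a difference of -2.06 on its only probe set. With centring on hybridization controls these differences were 1.33 and -1.76, and with centring on reference genes 0.75 and -2.35, so the opposite direction stood under both. Rab1b was past 2-fold under all 9 alternatives of scaling, pseudocount and probe set choice, but with 1 probe set the last of these could not move it. Rab1a, with 3 probe sets, was below 2-fold when they were averaged (0.73) and with centring on reference genes.

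Rab6a, which acts in transport within the Golgi and back to the ER, was measured by 3 probe sets, and all were at least 2-fold higher. The main probe set had 4008.8 in the AKI pool and 1651.3 in the sham pool (1.24). The others had 3811.1 against 1840.8 (1.02) and 637.1 against 222.4 (1.27). Of the 38 Rab GTPase genes with several probe sets, only Rab6a had all of them at least 2-fold higher. Over the whole array this held for 170 of 9010 such genes. Rab6b, the paralog of Rab6a, had a main difference of 0.79, with 2308.2 in the AKI pool and 1308.9 in the sham pool. The other 3 probe sets of Rab6b were weak and lower, down to -1.29.

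Rab18, an ER Rab also found on lipid droplets, had 6470.0 in the AKI pool and 3436.2 in the sham pool (0.90). Its other probe set lay just past the 2-fold limit. Rab2b, a Golgi Rab, had 721.0 in the AKI pool and 209.9 in the sham pool (1.49), but its 4 other probe sets lay between -0.30 and 0.44. The 7 probe sets of its paralog Rab2a were spread widely, with a main difference of -0.13 and others up to 2.14. No direction can be read for either Rab2 gene from values so far apart.

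Rab33a, a Golgi Rab, was weak, with 216.6 in the AKI pool and 38.1 in the sham pool (1.39), both under the array median. With the median of all signals as the added constant it was at 0.74, below 2-fold. Rab33b, which also binds the autophagy protein Atg16L1, had 856.2 in the AKI pool and 492.9 in the sham pool (0.72). Rab43, a Rab of the Golgi and ER, was lower, with 1438.2 in the AKI pool and 4381.5 in the sham pool (-1.56). Its other probe sets were at -0.87 and -0.45, so all 3 were lower in the AKI pool. Rab36 (0.62), Rab39b (0.57), Rab34 (0.21), Rab19 (-0.09) and Rab39 (-0.13) differed by less than 2-fold on the main probe set.

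**Figure D2:**
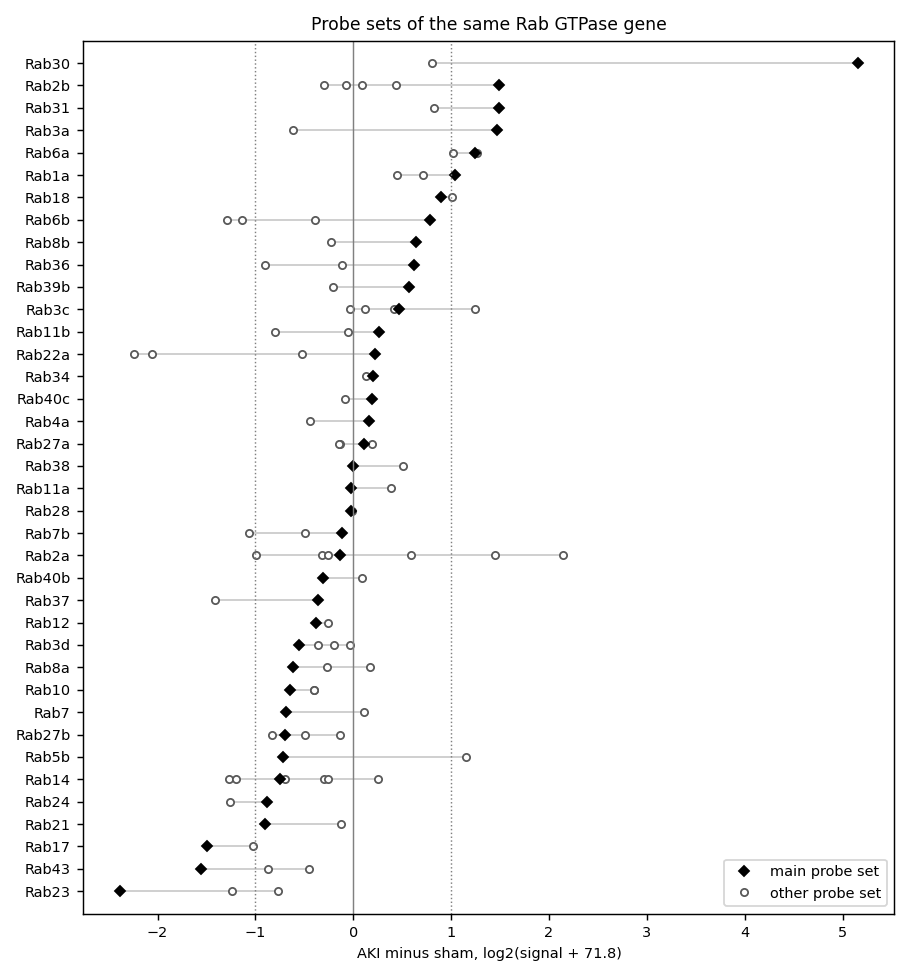
Differences, AKI minus sham, of every probe set of the 38 Rab GTPase genes with several probe sets; the diamond is the main probe set, circles are the others, and dotted lines mark 2-fold. The 3 marks of Rab6a lie past 2-fold, while Rab2a and Rab22a spread widely.

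Rabs of the early endosome, the first station of endocytosis, went both ways. Of 8 genes, 3 (37.5%) were at least 2-fold higher, against a background of 9.49%: Rab20, Rab31 and Rab5a. Another 1 (12.5%) was lower, against 10.6%: Rab17. The median was 0.09. It was -0.20 with centring on reference genes.

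Rab20, which acts on endosomes and phagosomes, had 655.9 in the AKI pool and 71.1 in the sham pool, a difference of 2.35. The sham value was low, under the 25th percentile of all signals (71.8), so the size of the difference depended on the added constant. It was 3.19 with a constant of 1 and 1.56, under 4-fold, with the median of all signals. Rab5a, which drives the fusion of early endosomes, had 5800.0 in the AKI pool and 2125.8 in the sham pool (1.42). Rab20 and Rab5a each had only 1 probe set. Rab31, which carries cargo between the trans-Golgi network and endosomes, had 1433.7 in the AKI pool and 465.2 in the sham pool (1.49), and its other probe set was at 0.82. All 3 stayed past 2-fold under all 9 alternatives, but the choice of probe set could not move Rab20 or Rab5a.

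The other Rab5 paralogs did not follow Rab5a. Rab5b had 391.4 in the AKI pool and 692.4 in the sham pool (-0.72), although its other probe set was at 1.15. Rab5c had 687.8 in the AKI pool and 707.9 in the sham pool (-0.04).

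Rab17, a Rab of polarized epithelia that serves transcytosis and apical recycling, was lower on both probe sets. The main one had 603.4 in the AKI pool and 1827.1 in the sham pool (-1.49), and the other had 127.2 against 334.3 (-1.03). Of the 38 Rab GTPase genes with several probe sets, only Rab17 had all of them at least 2-fold lower. Over the whole array this held for 193 of 9010 such genes. Both probe sets of Rab17 carry the suffix _a_at. Rab21, which takes part in integrin traffic, had 369.1 in the AKI pool and 752.0 in the sham pool (-0.90), with its other probe set at -0.12. For Rab22a, an early endosome Rab, the main probe set had 1201.7 in the AKI pool and 1021.8 in the sham pool (0.22). Its other probe sets had 74.6 against 620.1 (-2.24), 102.2 against 651.9 (-2.06) and 201.5 against 321.9 (-0.53). The strongest probe set of Rab22a thus showed little difference while the 3 others were lower in the AKI pool.

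Phagocytes express several endosomal Rabs, so their markers are given beside these values. The summed signal of 6 neutrophil markers was 6286.0 in the AKI pool and 1860.1 in the sham pool, and 3 of the 6 were at least 2-fold higher: S100a8, S100a9 and Ngp. Mpo did not differ by much, with 426.1 in the AKI pool and 438.1 in the sham pool (-0.03). Camp (44.4 in the AKI pool, 18.1 in the sham pool) and Cxcr2 (113.1 and 162.2) were under the array median in both pools. The summed signal of 7 Kupffer cell markers was 6959.8 in the AKI pool and 9858.2 in the sham pool, with Marco higher (1.46) and Clec4f lower (-1.37). Of the 2 monocyte markers measured, Ccr2 had 392.5 in the AKI pool and 262.4 in the sham pool (0.47), and Chil3 had 185.6 and 17.8 (1.52), with both Chil3 values under the array median. The part of these cells in the differences of Rab20, Rab31 and Rab5a was not tested. The 6 hepatocyte markers measured were all above the array median in both pools, with sums of 364836 in the AKI pool and 430397 in the sham pool.

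Of 8 Rabs of the recycling endosome, which returns receptors to the cell surface, 1 (12.5%) was at least 2-fold higher, against a background of 9.49%. At least 2-fold lower were 0, against 10.6%, with Rab17, which serves apical recycling, counted among the early endosome Rabs instead. The median of the 8 genes was 0.07, or -0.22 with centring on reference genes and -0.11 when all probe sets of a gene were averaged. Rab15, which acts in receptor recycling, had 769.3 in the AKI pool and 233.3 in the sham pool (1.46) on its only probe set. Rab11a, the main Rab of recycling endosomes, had 2134.2 in the AKI pool and 2166.1 in the sham pool (-0.02), and its paralog Rab11b had 2902.5 and 2406.7 (0.26). Other probe sets were at 0.38 for Rab11a, and at -0.80 and -0.06 for Rab11b. Rab14, which works between the Golgi and endosomes, had 2629.7 in the AKI pool and 4469.8 in the sham pool (-0.75). Of the 7 probe sets of Rab14, 6 were lower in the AKI pool, the lowest at -1.27, and 1 was at 0.25. Rab4a (0.16), Rab4b (-0.50), Rab25 (-0.08) and Rab35 (0.30) were within 2-fold. The other probe set of Rab4a was at -0.44.

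Rabs of the late endosome, the lysosome and related organelles were mostly on the lower side. Of 9 genes, 8 were below 0 and 1 (11.1%) was above, against 50.2% of all genes above 0. This group, like the others, was chosen with earlier results of these data known. The number past 2-fold was 0, against backgrounds of 9.49% higher and 10.6% lower. The median was -0.38. Centring on hybridization controls made this median -0.08, and centring on reference genes -0.67. It was -0.69 over the 5 genes at or above the 75th percentile of level. Rab7, which drives fusion of late endosomes with lysosomes, had 3568.8 in the AKI pool and 5799.4 in the sham pool (-0.69), but its other probe set had 2648.9 and 2445.3 (0.11). Rab9, which returns mannose 6-phosphate receptors from late endosomes to the Golgi, had 1578.5 in the AKI pool and 3087.8 in the sham pool (-0.94) on its only probe set. Rab24, linked to autophagy, had 420.2 in the AKI pool and 836.2 in the sham pool (-0.88), with its other probe set at -1.26. Rab29 (-0.39), Rab12 (-0.38), Rab32 (-0.38), Rab7b (-0.12) and Rab38 (-0.01) were also below 0, and Rab9b (0.08) was above. Rab9b was under the array median in both pools. Differences as small as those of Rab7b, Rab38 and Rab9b can change sign with the centring. The value of Rab38 came from a probe set whose suffix (_x_at) marks probes that may match other genes. Its other probe set was higher, with 789.8 in the AKI pool and 535.1 in the sham pool (0.51). The farthest of the 9 genes from 0, Rab9 at -0.94, compares with the SD of 0.77 between probe sets of a Rab gene.

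Of 12 Rabs of secretion and delivery to the cell surface, 1 (8.33%) was at least 2-fold higher and 0 lower, against backgrounds of 9.49% and 10.6%. The median was -0.06. Hybridization control centring made it 0.24, and reference gene centring -0.35. Over the 8 genes that reached the array median on either array it was -0.46. Rab3a, a Rab of regulated exocytosis known best from synaptic vesicles, had 3195.8 in the AKI pool and 1109.3 in the sham pool (1.47). This came from a probe set whose suffix (_x_at) marks probes that may match other genes. The other probe set of Rab3a had 56.5 in the AKI pool and 124.6 in the sham pool (-0.61), so the direction depended on the probe set. Rab10, which acts in delivery to the surface, had 1945.4 in the AKI pool and 3086.2 in the sham pool (-0.65), and all 3 of its probe sets were lower, the smallest difference being -0.40. Rab8a, which moves vesicles to the apical surface and cilia, had 2260.0 in the AKI pool and 3507.6 in the sham pool (-0.62), whereas its paralog Rab8b had 917.1 and 560.5 (0.65). Rab13, of tight junction traffic, had 524.6 in the AKI pool and 560.0 in the sham pool (-0.08). All 4 probe sets of Rab3d were lower, from -0.56 to -0.03, as were all 4 of Rab27b, from -0.83 to -0.14. Of those of Rab27b only 1 reached the array median on either array, and it carries the suffix _x_at. Rab37, of regulated secretion, was at -0.37, and its other, weaker probe set at -1.41. Rab3b, Rab3c, Rab26 and Rab27a had main signals under the array median in both pools.

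Of 6 Rabs of cilia, ubiquitin ligases or less studied function, 1 (16.7%) was at least 2-fold higher and 1 (16.7%) lower. The backgrounds were 9.49% and 10.6%. The median was 0.08, or -0.21 with centring on reference genes. Rab23, an inhibitor of Hedgehog signalling that also acts at the cilium, had 79.2 in the AKI pool and 714.3 in the sham pool, a difference of -2.38. The AKI value was low, and the difference was -3.16 with an added constant of 1 and -1.61 with the median of all signals. Its other probe sets had 64.3 in the AKI pool against 249.9 in the sham pool (-1.24) and 11.9 against 71.2 (-0.77). All 3 were lower, and Rab23 was past 2-fold under all 9 alternatives. Rab42 was weak, with 186.4 in the AKI pool and 37.2 in the sham pool (1.24), both under the array median. Rab28 (-0.03), Rab40b (-0.31), Rab40c (0.19) and Rab44 (0.29) were within 2-fold.

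**Figure D3:**
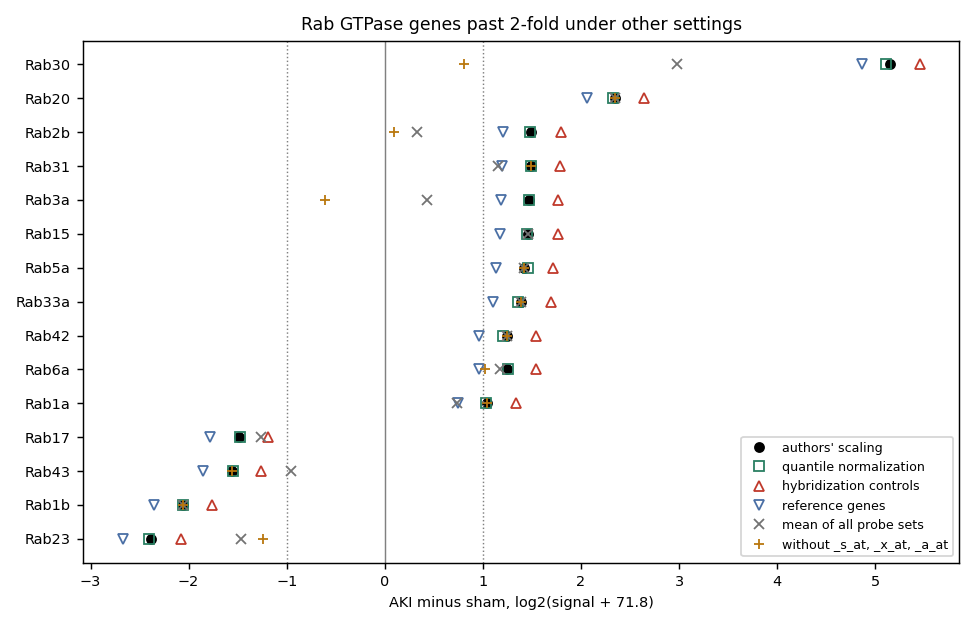
Differences, AKI minus sham, of the 15 Rab GTPase genes past 2-fold, under the authors' scaling (black circles) and under 5 other settings. Rab20, Rab31, Rab5a, Rab33a, Rab1b and Rab23 stay past the dotted 2-fold lines in all settings drawn. Of these, Rab20, Rab5a, Rab33a and Rab1b have 1 probe set each, so probe set choice could not move them. Other added constants are not drawn, and with the median of all signals as the constant Rab33a was at 0.74, below 2-fold. Rab30 and Rab2b drop below 2-fold and Rab3a changes side without probe sets of the suffixes _s_at, _x_at and _a_at.

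Paralog families were taken as genes whose symbols share a number and differ by a letter. Related Rabs with different numbers were not grouped. There were 14 such families with 31 measured genes. In 11 families the main probe sets lay on both sides of 0, but only in 6 with centring on reference genes. In 6 families the span was 1 or more on the log2 scale, and in 4 when all probe sets of a gene were averaged. The same counts were not taken over other groups of genes, so they have no background. A span of 1 compares with the SD of 0.77 between probe sets of a Rab gene. The widest span was that of Rab1 (3.10), followed by Rab5 (2.14), Rab3 (2.03), Rab2 (1.62), Rab8 (1.26) and Rab9 (1.02). The Rab9 span rested on Rab9b, which was under the array median in both pools, with 75.4 in the AKI pool and 67.4 in the sham pool. Rab1 was the only family with a member past 2-fold in each direction. The spans of Rab5, Rab3, Rab2 and Rab8 rested in part on genes whose own probe sets disagreed: Rab5b, Rab3a, Rab2a and Rab2b have values on both sides of 0, as do Rab8a and Rab8b through weak probe sets (0.17 and -0.23). In the Rab6, Rab33 and Rab7 families the main probe sets went the same way.

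The 4 members that are not GTPases were within 2-fold. Rab3ip, an exchange factor for Rab8, had 389.8 in the AKI pool and 620.1 in the sham pool (-0.58), with its other probe set at -1.34. Rab5if had 9158.2 in the AKI pool and 8988.2 in the sham pool (0.03). Rab10os had 290.5 in the AKI pool and 403.0 in the sham pool (-0.39), and Rab26os had 71.0 and 42.3 (0.32). The other probe set of Rab10os was at 1.70, with 278.0 in the AKI pool and 36.1 in the sham pool, so no direction can be read for it.

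Genes that load, switch or read Rab proteins were taken from 4 lists with 136 measured genes in all. Of these, 7 (5.15%) were at least 2-fold higher in the AKI pool, against a background of 9.49%, and 17 (12.5%) were lower, against 10.6%. The medians of all 4 lists lay near 0 and changed sign with the centring: those of the GEFs, the GAPs and the prenylation genes were above 0 with centring on hybridization controls, and that of the effectors was -0.25 with centring on reference genes. Among 35 exchange factor genes, 2 (5.71%) were at least 2-fold higher in the AKI pool and 3 (8.57%) were lower, with a median of -0.04. Denn2b, which encodes a DENN domain protein that activates Rab13 in human cells, had 13019.5 in the AKI pool and 275.4 in the sham pool, a ratio of 47.3 and a difference of 5.24 on its only probe set. Its difference was of the same size as that of Rab30, while Rab13 itself was at -0.08. Als2cl, related to the Rab5 exchange factor alsin, had 3843.6 in the AKI pool and 348.7 in the sham pool (3.22), with its other probe set at 0.76. Rin3 (-1.47), also an exchange factor of the Rab5 group, Ankrd27 (-1.16), which binds Rab21, Rab32 and Rab38, and Dennd1c (-1.17) were lower, the last of these under the array median in both pools.

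Among 37 GAP genes, 1 (2.7%) was at least 2-fold higher and 5 (13.5%) were lower, against backgrounds of 9.49% and 10.6%. Their median was -0.16. Tbc1d15, which in human cells acts on Rab7, had 6120.6 in the AKI pool and 1624.0 in the sham pool (1.87), and all 3 of its probe sets were at least 2-fold higher, up to 2.26. Rabgap1 (-1.82), Tbc1d17 (-1.80), Grtp1 (-1.33), Tbc1d22b (-1.30) and Tbc1d24 (-1.09) were lower. Other probe sets of Rabgap1 and Tbc1d24 reached 0.23 and 0.36.

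Of 9 genes of Rab prenylation and the membrane cycle, 1 (11.1%) was at least 2-fold higher and 2 (22.2%) were lower. The backgrounds were 9.49% and 10.6%. Chm, the escort protein that presents new Rabs to the prenylating enzyme, had 782.8 in the AKI pool and 279.4 in the sham pool (1.28), and its other probe set was at 0.84. The 2 subunits of that prenylating enzyme went opposite ways. Rabggta had 582.8 in the AKI pool and 1601.4 in the sham pool (-1.35), and Rabggtb had 2452.5 and 1336.4 (0.84), each on 1 probe set. Icmt, which methylates prenylated proteins, was also lower (-1.22). Gdi2, the GDI of most tissues, had 8483.9 in the AKI pool and 10098.2 in the sham pool (-0.25), and all 6 of its probe sets were slightly lower.

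**Figure D4:**
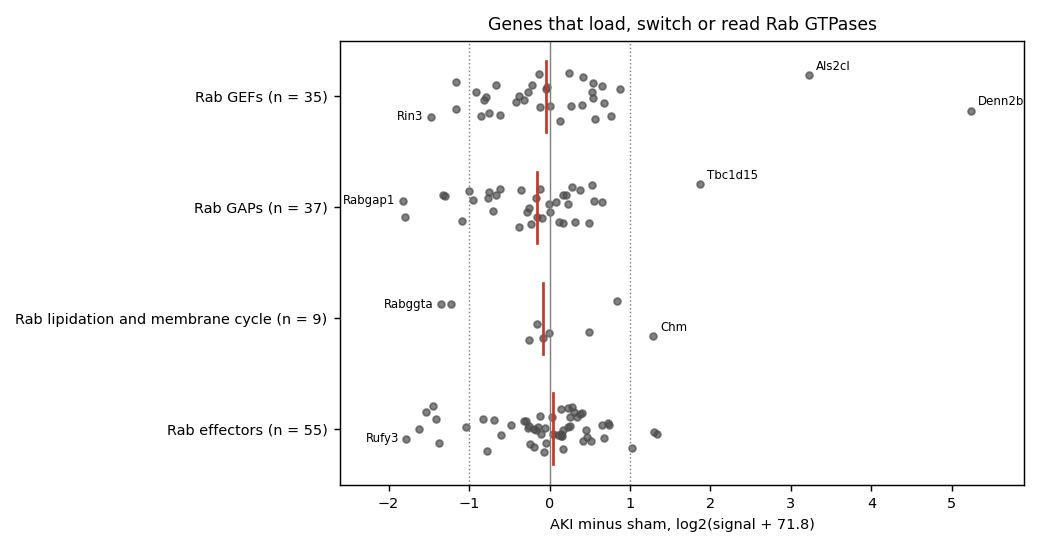
Differences, AKI minus sham, of genes that switch (GEFs, GAPs), lipidate or read (effectors) Rab proteins; each point is a gene, the red bar is the median of the list and dotted lines mark 2-fold. Medians lie between -0.16 and 0.04, while Denn2b (5.24) and Als2cl (3.22) lie far to the right.

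Of 55 effector genes, 3 (5.45%) were at least 2-fold higher and 7 (12.7%) were lower, against backgrounds of 9.49% and 10.6%. Their median was 0.04. The higher ones included Golga5 (1.33), the gene of a golgin that binds Rab1, with 3126.2 in the AKI pool and 1200.3 in the sham pool. Gorasp2 (1.30), the gene of a Golgi stacking protein, had 5957.7 in the AKI pool and 2378.9 in the sham pool, with its other probe set at 1.11. The third, Mical1 (1.03), was under the array median in both pools and its other probe set was at -0.32. The largest negative differences were those of Rufy3 (-1.78), Vps41 (-1.62), Rilp (-1.53) and Osbpl1a (-1.45). Another probe set of Rufy3 was at 0.12.

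Vps41, Rilp and Osbpl1a all bind to Rab7-marked late endosomes and lysosomes, a grouping chosen after their values were seen. Rilp, which links Rab7 to the dynein motor, had 273.4 in the AKI pool and 927.9 in the sham pool. Osbpl1a, a sterol sensor on Rab7 membranes, had 1226.0 in the AKI pool and 3466.3 in the sham pool, and its other probe set was at -2.10. Vps41 and Vps39 belong to the HOPS complex, which tethers late endosomes to lysosomes. Vps41 had 708.0 in the AKI pool and 2326.9 in the sham pool, and Vps39 had 373.9 and 844.1 (-1.04). Other probe sets of Vps41 and Vps39 were nearer to 0, at -0.27 and -0.33. The core HOPS genes Vps16 (0.47) and Vps18 (0.14), and Plekhm1 (0.65), another Rab7 effector, were on the higher side, so effectors of the Rab7 step went both ways.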

How the data were processed

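Liver RNA of 2 pools was measured on 1 array each. The authors deposited 1 signal intensity per probe set and array, on a linear scale. Their mean after trimming 2% at each end was 500.0 on both arrays, so the arrays had been scaled to a common target. No label or file header used here names the software behind these signals. Per the labels, RNA was extracted with Trizol and 8 ug of it was turned into biotin-labelled cRNA. Probe sets were named through the platform annotation, with 34945 of 45037 non-control probe sets given to 1 gene, 932 to several and 9160 to none. Entrez numbers of 34741 probe sets matched a RefSeq gene table (GRCm38.p6), which altered 0 symbols. The signal table names no genome build.

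Differences were taken as log2(signal + 71.8), AKI minus sham, with the 25th percentile of all signals (71.8) as pseudocount. No level filter was applied to the counts, since a filter met on 1 array favours genes that differ. The number of arrays limits the precision, and no test between groups was possible. All members could be named, and from each other list up to 4 genes higher and 4 lower past 2-fold, or all where there were 5 or fewer, and all reference genes. Members, role lists and lists of regulators were chosen with earlier results of these data known. Promoters are RefSeq sequences, searched for 6 motifs. An earlier search for the NF-kB motif and the ER stress element, not repeated since, found no match in any Rab promoter. Both were rare over all promoters too, so nothing can be read from their absence. Alternatives covered scaling, pseudocount, level filter and probe set choice. The calculation was tested on simulated data. Python 3.11.15 with numpy 2.4.6, pandas 2.3.3, statsmodels 0.14.6 and matplotlib 3.10.9 was used.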

Additional observations from a re-analysis of the deposited data

How the results depend on the processing

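Over the 63 genes taken in by the rule, 11 were at least 2-fold higher and 4 lower, 2 at least 4-fold higher and 2 lower, and the median was -0.02. The 2-fold counts kept within 1.5 times under all alternatives but these: 9 were lower with centring on reference genes, and 6 were higher among the 32 genes at or above the 75th percentile of level. At 4-fold, 4 were higher with a pseudocount of 1, and 1 was higher with a pseudocount at the table median, at the 75th percentile, or without probe sets of the suffixes _s_at, _x_at and _a_at. At 4-fold, 0 were lower with a pseudocount at the table median, and 1 was lower with hybridization control centring, at the 75th percentile, with the mean of all probe sets, or without those suffixes. Counts at the 75th percentile are over fewer genes. Of the Rab GTPases at that level, 19.4% were at least 2-fold higher, and 3.23% were past 4-fold in each direction. Over all 59 Rab GTPases these shares were 18.6% and 3.39%. The median of the genes taken in by the rule was 0.28 with centring on 18 hybridization control probe sets, -0.31 with centring on 10 reference genes, and 0.10 at the 75th percentile. These centrings moved the median of all genes to 0.30 and -0.29. The median of Rab GTPases less that of all genes was -0.02 with the authors' scaling, 0.03 with quantile normalization, 0.04 with lowess centring and 0.21 at the 75th percentile. Without those suffixes Rab3a reversed to -0.61 and the effector gene Mical1 to -0.32. Leaving out the 4 genes that are not GTPases altered no count. That alternative, and those for role groups and paralog families, were chosen after seeing the data. Averaging probe sets moved 8 of the 38 Rab GTPase genes with several by at least the SD between probe sets of a gene, 0.70. Leaving out those suffixes moved 4 of the 13 genes whose main probe set it replaced by as much. No paired analysis was possible because each group has 1 array. The causes of these shifts were not tested. Low signal limits Rab33a, Rab42 and the other 10 genes under the array median in both pools.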
